A study of Mus musculus with 8 samples.

Results

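The regions described here are distal sites that were open in mouse embryonic fibroblasts (MEFs) and carried no peak in any other cell population of the study. They were chosen from the peak lists themselves. Peaks of the 4 deposited lists lying within 400 bp of each other were merged, and a merged region was kept when it held a peak in MEFs, none in embryonic stem cells (ESCs) and none on day 5 or day 10 of reprogramming, and when it lay more than 5 kb from every annotated transcription start site. This rule selected 22502 regions of 101701 merged regions (22.1%). They made up 39.9% of the 56449 regions with a MEF peak and 71.3% of the 31554 distal regions with a MEF peak. Since presence and absence of a peak and the distance to a start site define the set, these shares are descriptions and were not tested.

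Open chromatin was profiled in 8 libraries, 2 for each of 4 groups, with ATAC-seq, an assay that uses a transposase to tag accessible DNA. The starting cells were Jmjd3 wildtype MEFs of the strain C57BL/6J-OG2, a mouse line with a Pou5f1-driven GFP reporter, prepared from mid-gestation embryos and used within 3 passages. The cells at day 5 and day 10 were the same kind of MEFs infected with pMXs retroviruses that carry OCT4, SOX2, KLF4 and MYC (OSKM), together with a FLAG control vector, and kept in ESC medium with vitamin C. The ESCs were also wildtype for Jmjd3, with the strain given as C57Bl6J for replicate 1 and C57BL/6J-OG2 for replicate 2, so strain, medium and infection cannot be told apart from cell type in the comparison of lists. The labels place ESCs on a feeder layer of MEFs, while the study's methods put the ATAC-seq ESCs on gelatin, and a part of feeder cells in the ESC peaks that exclude a region was not tested. MEFs are a mixed culture of mesenchymal cells, and the infected cultures hold cells that do and do not proceed towards pluripotency. In bulk samples, fewer cells with an open site and less opening per cell cannot be told apart.

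The lists held 35226 to 56514 peaks, the longest being that of MEFs, with median widths of 605 to 709 bp. Peak lists carry no read totals. The depth behind them is therefore unknown, and a peak missing from a list shows only that it did not pass there. The 6 fibroblast markers (Col1a1, Col1a2, Pdgfra, Thy1, Prrx1 and Twist2) all had a MEF peak within 1 kb of a start site. Thy1 had one in MEFs only, Prrx1 had one in MEFs and on both days, and the other 4 had one in all lists, ESCs included. Of 6 pluripotency markers, Nanog, Zfp42 and Dppa4 had a start site peak in ESCs only, while Esrrb, Tfcp2l1 and Tdgf1 also had one in MEFs. Peaks were present in MEFs at the start sites of 1 of 4 macrophage markers (Csf1r), 2 of 4 endothelial markers (Tek and Kdr), 2 of 4 epithelial markers (Epcam and Grhl2), 2 of 4 neural markers (Sox2 and Tubb3) and 0 of 4 muscle markers. The part of such cells in the distal regions was not tested.

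Distal open sites of this kind are mostly candidate enhancers, stretches of DNA that bind transcription factors and act on genes at a distance. In fibroblasts many enhancers are bound by AP-1, a dimer of FOS and JUN proteins that answers growth factor and stress signals, together with TEAD factors, which carry YAP and TAZ at the end of the Hippo pathway, and RUNX factors, which specify mesenchymal and blood lineages. The reprogramming factor KLF4 recognises GC-rich sequences, SOX2 and OCT4 bind a joint element in pluripotent cells, and the closing of somatic enhancers is an early event when fibroblasts lose their identity.

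The sequences below show the elements on which the results turn. Each is the 200 bp window around the midpoint of the MEF peak, on the plus strand of mm10, in which capitals mark matches on either strand to the AP-1 consensus TGACTCA, the TEAD consensus CATTCCA or CATTCCT, and the RUNX consensus TGTGGTT. The first is the member with the highest MEF fold enrichment among those with an AP-1 match, in an intron of Klf12 at chr14:100247443-100247642. The next lies between genes in the territory of Nr2f2, a mesenchymal nuclear receptor gene, at chr7:70016764-70016963, 338373 bp from the Nr2f2 start site. It is followed by sites nearest Thbs2 (thrombospondin 2, chr17:14610888-14611087), Vcl (vinculin of focal adhesions, chr14:20903280-20903479), Ccn2 (a secreted target of YAP, chr10:24493542-24493741) and Tgfbr2 (the type II TGF-β receptor, chr9:116267510-116267709), all outside annotated genes. These sites lay 59878, 26018, 101800 and 92250 bp from the start sites of those genes, in the same order. They were taken by the same criterion from part of the members in 5 gene lists. Windows that were mostly repeat-masked and members on a chromosome that was set aside were left out. A list may therefore hold a member with an AP-1 match and a higher fold enrichment.
Klf12: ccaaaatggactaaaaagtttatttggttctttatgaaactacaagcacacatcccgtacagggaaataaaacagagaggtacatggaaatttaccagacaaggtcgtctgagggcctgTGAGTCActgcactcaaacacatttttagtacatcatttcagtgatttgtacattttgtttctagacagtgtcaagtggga
Nr2f2: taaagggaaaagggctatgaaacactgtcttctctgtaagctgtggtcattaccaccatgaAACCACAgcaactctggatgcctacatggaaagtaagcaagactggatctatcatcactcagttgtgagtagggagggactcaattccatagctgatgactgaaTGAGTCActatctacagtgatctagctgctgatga
Thbs2: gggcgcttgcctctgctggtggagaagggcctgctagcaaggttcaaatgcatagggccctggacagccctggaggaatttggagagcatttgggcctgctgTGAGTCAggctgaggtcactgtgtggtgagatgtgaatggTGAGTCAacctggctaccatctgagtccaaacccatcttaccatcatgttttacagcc
Vcl: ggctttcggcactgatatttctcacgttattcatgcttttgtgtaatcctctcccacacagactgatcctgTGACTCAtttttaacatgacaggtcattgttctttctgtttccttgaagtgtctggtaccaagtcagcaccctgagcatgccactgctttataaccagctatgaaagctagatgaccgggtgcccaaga
Ccn2: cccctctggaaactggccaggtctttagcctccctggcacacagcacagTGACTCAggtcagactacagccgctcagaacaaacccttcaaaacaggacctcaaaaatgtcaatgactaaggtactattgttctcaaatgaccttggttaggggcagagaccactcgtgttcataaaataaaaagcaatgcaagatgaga
Tgfbr2: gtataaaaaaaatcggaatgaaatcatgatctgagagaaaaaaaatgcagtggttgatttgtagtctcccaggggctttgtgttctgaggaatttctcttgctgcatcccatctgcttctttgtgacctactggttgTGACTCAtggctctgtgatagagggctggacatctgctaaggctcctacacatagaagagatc

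The MEF fold enrichments of these 6 peaks were 7.12 (Klf12), 5.97 (Nr2f2), 4.80 (Thbs2), 5.08 (Vcl), 5.07 (Ccn2) and 4.26 (Tgfbr2). The Thbs2 window holds 2 AP-1 matches, the Nr2f2 window holds an AP-1 and a RUNX match, and the other 4 windows hold a lone AP-1 match with no TEAD or RUNX consensus. All 6 were selected for an AP-1 match, so its presence in them is no result.

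A pair of windows from the sets used for comparison is shown next, with AP-1 in capitals as before and, in addition, the KLF consensus (CCACACCC, CCACGCCC, CCCCACCC or CCCCGCCC) and the SOX consensus (CCATTGT or CCTTTGT) in the first, and the octamer ATGCAAAT bound by OCT4 and the SOX consensus in the second. The first, in an intron of Nckap5 at chr1:126817681-126817880, is a distal region that was open in MEFs and on both days. It had the highest MEF fold enrichment (5.68) of the 30 such windows with a KLF and a SOX match. The second, in an intron of Pole4 at chr6:82688749-82688948, was open in ESCs only and had the highest ESC fold enrichment (5.77) of the 48 such windows with an octamer and a SOX match.
Nckap5: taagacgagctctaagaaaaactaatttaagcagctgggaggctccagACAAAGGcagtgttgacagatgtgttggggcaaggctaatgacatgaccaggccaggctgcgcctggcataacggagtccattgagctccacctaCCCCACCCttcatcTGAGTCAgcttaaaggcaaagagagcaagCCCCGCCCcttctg
Pole4: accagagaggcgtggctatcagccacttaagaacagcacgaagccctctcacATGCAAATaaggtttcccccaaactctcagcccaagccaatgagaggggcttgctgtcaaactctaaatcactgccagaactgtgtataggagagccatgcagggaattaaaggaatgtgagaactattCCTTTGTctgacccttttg

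Every MEF-only distal region consisted of exactly 1 MEF peak. In the MEF list the smallest gap between neighbouring peaks was 1097 bp. In that list 810 intervals shared a peak name with another interval, so 1 called peak may be listed as several intervals. The median peak width was 573 bp (quartiles 398 and 801 bp), and the narrowest interval measured 2 bp. The median fold enrichment, as the authors' peak calling gave it, was 3.20 (quartiles 2.79 and 3.79, highest 8.80). Comparisons were made with 2227 distal MEF regions that still carried a peak on both days and none in ESCs (called kept here), 7496 MEF-only regions within 5 kb of a start site and 17265 distal regions with a peak in ESCs only. Kept regions were wider (median 791 bp) and had a higher median fold enrichment in MEFs (3.56). Neither was tested, since peak calling in the MEF list belongs to the rule.

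Regions on either side of the thresholds had these values. The 1139 MEF-only regions at 4 to 5 kb from a start site had a median fold enrichment of 3.06, and the 1178 members at 5 to 6 kb had one of 3.10. An AP-1 match was found in 23.5% and 26.3% of their windows. On the merging distance, 467 distal MEF peaks had a peak of another list 1 to 400 bp away and a median fold enrichment of 2.96, against 3.17 in the 366 distal MEF peaks whose nearest other peak lay beyond that distance and within 800 bp.

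The rule excluded peaks of other lists within 400 bp. The median gap of members to the nearest peak of any other list was 11559 bp, 8.68% had such a peak within 2 kb, 45.2% within 10 kb and 9.93% had none within 50 kb. The median distance to the nearest start site was 21559 bp, and 1743 members (7.75%) were more than 100 kb away. By midpoint, 49.4% lay in introns (95% Wilson interval 48.7% to 50.0%), 48.5% between genes and 2.07% in exons. The intron share of kept regions was 51.8%, and the difference of −2.43 percentage points had an interval of −6.20 to 1.37. ESC-only distal regions lay in introns less often (43.8%), with a difference of 5.60 points (3.88 to 7.32) that had the same sign on 20 of 20 chromosomes. Intervals of differences in this report are Newcombe intervals, widened so that all 79 differences computed hold jointly at 95%. They cover counting error only, as 1 list stood for each group.

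The regions were spread over the genome with few dense groups. Autosomes held between 6.94 members per Mb (chromosome 7) and 10.9 (chromosome 18), and the X chromosome held 2.47. As a share of the regions with a MEF peak, members made up 30.7%, 47.6% and 36.9% on these chromosomes. Over all chromosomes that share was 39.9%. The median distance from a member to the next was 25031.5 bp. When members within 12.5 kb were joined, 44 groups of 5 or more regions arose, with 242 members in all and at most 8 in a group. Repeat-masked bases made up 13.8% of the member windows, against 28.9% in ESC-only distal windows, and the mean GC content was 44.1% against 46.7%.

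Of the 18 consensus sequences searched, AP-1 differed most in percentage points between MEF-only distal regions and their surroundings. It was present in 24.98% of the member windows (5621 of 22502, 95% Wilson interval 24.4% to 25.5%) and in 3.29% of windows of the same length 1 kb to each side. The difference of 21.7 points (20.7 to 22.7) held its sign on 20 of 20 chromosomes. Over all 101701 merged regions the share was 11.7%. Of the member windows, 4934 held 1 match, 649 held 2 and 38 held 3 or more. Over the whole peak instead of the window, 47.5% of members (46.8% to 48.2%) had at least 1 match, against 53.2% of the wider kept peaks (51.1% to 55.2%) and 44.9% of promoter-near MEF-only peaks. Per kb of peak there were 0.959, 0.882 and 0.893 matches in the same order.

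The reversed but not complemented word ACTCAGT, a control with the same letters, occurred in 5.40% of member windows and 3.57% of flanking windows. It shares ACTCA with the end of the AP-1 consensus, and in windows without that consensus its shares were 3.57% and 3.23%.

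**Figure D1:**
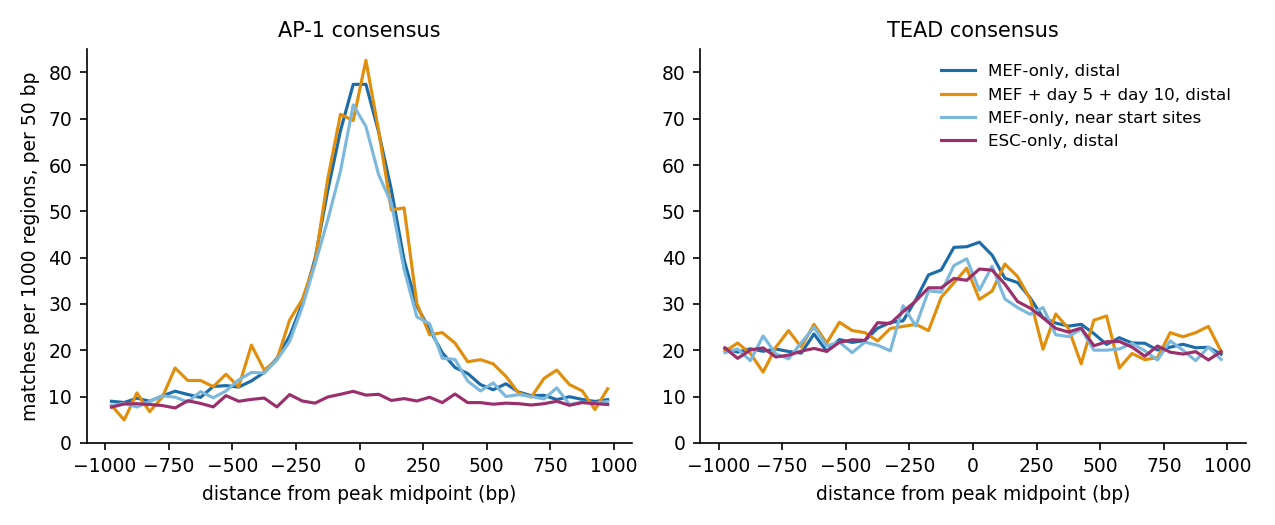
Matches to the AP-1 (left) and TEAD (right) consensus per 1000 regions in 50 bp bins (y axis) against the distance from the peak midpoint in bp (x axis), with a line for each of the 4 sets of regions. AP-1 reached 77.4 matches per 1000 MEF-only distal regions in the bins beside the midpoint and stood at 8.98 and 9.33 in the outermost bins, while in ESC-only regions it went from 7.70 and 8.28 in the outermost bins to 11.1 and 10.3 beside the midpoint.

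The AP-1 matches were concentrated at the peak midpoint. The bins to the left and right of it each held 77.4 matches per 1000 members, and the outermost bins, 975 bp away on average, held 8.98 and 9.33. TEAD matches rose from 20.4 and 19.2 in the outermost bins to 42.4 and 43.3 beside the midpoint. The midpoint is only a stand-in for the most accessible base, and by quintiles of peak width the AP-1 share of the member windows was 20.02%, 27.1%, 32.4%, 28.7% and 15.0% from the narrowest to the widest.

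The bases around the AP-1 core differed between members and flanks. With the base before and after it, the form GTGACTCAT was 18.1 times as frequent per window in members as in flanks (652 and 72 matches), ATGACTCAT 15.7 times and CTGACTCAT 14.3 times. At the other end, TTGACTCAA was 1.68 times as frequent (63 and 75 matches in 22502 member and 45004 flanking windows). The 3 forms with the smallest ratios all had a T before the core or an A after it. Of the 19 distinct single-base changes of the core listed, counting positions from 1 at its 5′ end, C4A (TGAATCA, 9.19% and 2.77% of windows, ratio 3.31) and C6A (TGACTAA, 7.99% and 2.48%, ratio 3.22) were the most enriched, and A3T (TGTCTCA, ratio 0.864) the least.

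Among 16044 words of 8 bases present in enough windows to be ranked, the 10 with the highest ratio of members to flanks all contained the AP-1 core, most of it or its C4A form, led by ATGAGTCA (9.20% and 0.704% of windows, ratio 13.1) and ATGACTCA (9.004% and 0.835%, ratio 10.8). In the 16881 member windows without the core, the leading words were ATGAATCA (4.54% and 0.788%, ratio 5.77) and ATGACTAA (3.81% and 0.662%, ratio 5.77), which carry the C4A and C6A changes. These ratios rank the words and were not tested.

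In the 200 bp windows the kept regions did not differ detectably from the members in this element. AP-1 was found in 24.4% of kept windows (544 of 2227), and the difference of 0.55 points had an interval of −2.83 to 3.69. The difference was positive on 14 of 19 chromosomes with enough regions. Promoter-near MEF-only regions had the consensus in 22.5% of windows, 2.51 points fewer (0.565 to 4.40, 19 of 20 chromosomes). That call was lost with members over 10 kb from start sites (1.21 points, −0.518 to 2.91) and with a 100 bp window (1.06 points, −0.495 to 2.54). In ESC-only distal windows the share was 4.04%, close to the 3.15% of their own flanks and 20.9 points (19.8 to 22.0) below the members.

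TEAD and RUNX matches were also more frequent in members than in flanks. A TEAD consensus was present in 15.1% of member windows, 7.41% of flanks and 11.2% of all merged regions. The share was 3.11 points higher than in kept regions (12.0%, interval of the difference 0.437 to 5.42, 15 of 19 chromosomes) and 2.18 points higher than in ESC-only regions (12.9%, 0.984 to 3.37). TEAD also exceeded the sets' own flanks in ESC-only (12.9% and 7.30%), kept (12.0% and 7.52%) and promoter-near MEF-only windows (13.5% and 7.45%), without a test. The call against kept regions was lost over 10 kb from start sites (2.87 points), with the higher-scoring 50% of each list (3.02 points) and with a 100 bp window (1.44 points). RUNX was present in 7.85% of member windows, 4.77% of flanks and 5.29% of all merged regions. Its difference to kept regions (6.96%) was 0.89 points (−1.27 to 2.63), and that to ESC-only regions (4.01%) was 3.83 points (3.03 to 4.63).

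TEAD and RUNX were about as frequent beside AP-1 as without it. TEAD was found in 14.9% of members with AP-1 and in 15.2% of those without, and RUNX in 7.54% and 7.95%. At least 1 of the 3 was present in 41.3% of members, 37.7% of kept regions, 37.6% of promoter-near MEF-only regions and 19.7% of ESC-only regions.

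**Figure D2:**
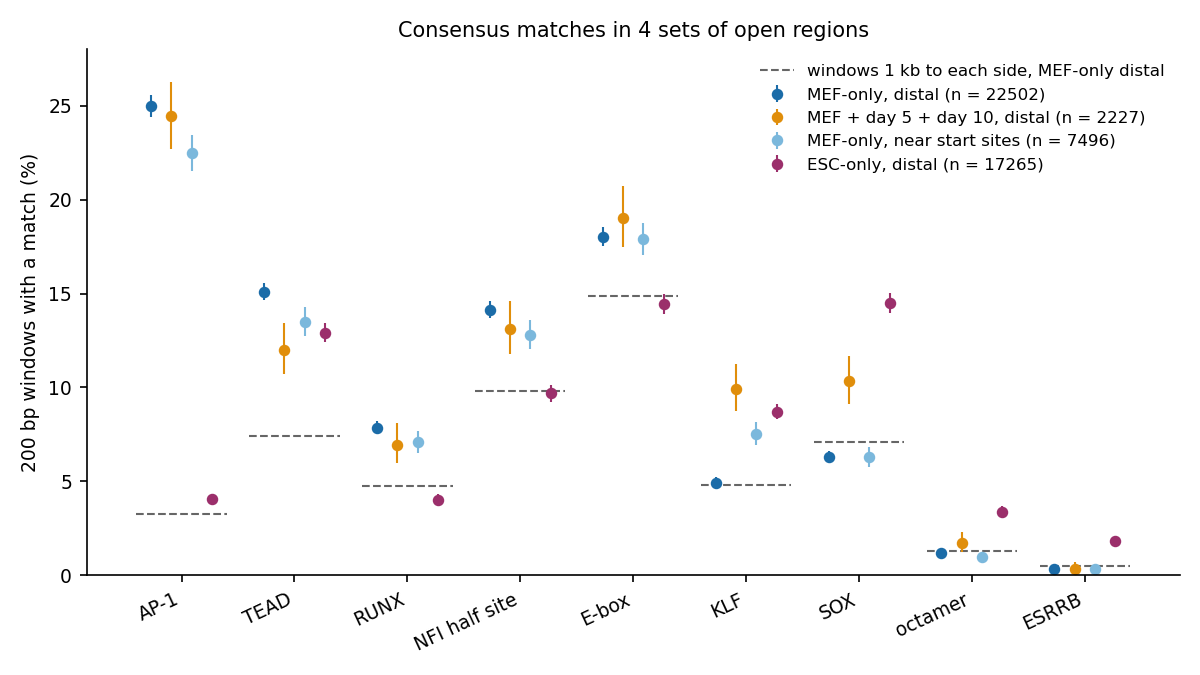
Share of 200 bp windows with a match (y axis, %) for 9 consensus sequences (x axis) in the 4 sets of regions, with 95% Wilson intervals as bars and the share in the windows beside the MEF-only distal regions as dashed lines. AP-1 was at 24.98% in MEF-only distal regions, 24.4% in kept regions and 4.04% in ESC-only regions, while KLF was lowest in the MEF-only distal regions at 4.92%.

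The KLF and SOX consensus sequences were less frequent in the members than in the regions kept on both days. KLF was present in 4.92% of member windows, 4.79% of their flanks (difference 0.13 points, −0.456 to 0.747) and 11.03% of all merged regions. In kept windows the share was 9.92%, a difference of −5.00 points (−7.43 to −2.98) that was positive on only 1 of 19 chromosomes. Members were also lower than ESC-only regions (8.71%, −3.79 points, −4.69 to −2.92) and than promoter-near MEF-only regions (7.52%, −2.60 points, −3.81 to −1.50). The flanks of the compared sets differed too, with KLF in 5.95% for kept, 4.70% for ESC-only and 6.14% for promoter-near MEF-only regions. SOX was present in 6.28% of member windows, 7.12% of flanks (−0.85 points, −1.53 to −0.144) and 10.1% of all merged regions, against 10.3% of kept windows (−4.05 points, −6.52 to −1.97) and 14.5% of ESC-only windows (−8.22 points, −9.30 to −7.16). Promoter-near MEF-only regions held SOX in 6.28% of windows as well, and that interval spanned 0 (−1.16 to 1.05 points).

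The sequences of pluripotency factors were near flank level in members. The octamer was found in 1.19% of member windows, 1.30% of flanks, 1.71% of kept windows and 3.39% of ESC-only windows, with an interval of −2.76 to −1.69 points for the last difference. TCAAGGTCA, the consensus of the nuclear receptor ESRRB, was found in 0.324%, 0.473%, 0.359% and 1.85%, with an interval of −1.92 to −1.17 points against ESC-only regions. The intervals of both differences to kept regions spanned 0.

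Apart from the reversed control, 8 of 18 sequences were more frequent in members than in their flanks, 2 were less frequent (SOX and the homeodomain sequence TAATTA) and the intervals of 8 spanned 0. Besides those named, NFI sites (TTGGCA) reached 14.1% against 9.80%, an E-box (CATCTG) 18.01% against 14.9%, STAT (TTCNNNGAA) 8.18% against 6.35%, C/EBP (TTGCNNAA) 9.78% against 8.53% and CTCF, the insulator protein, 0.755% against 0.0889%. Compared with kept regions, TEAD was higher, KLF and SOX were lower, and 17 of 20 intervals, the intron share included, spanned 0. Matches to SRF, MEF2, FOX (TGTTTAC), ETS (CCGGAAGT) and CRE (TGACGTCA) did not differ detectably from flanks. A match to such short sequences is no evidence of a bound factor.

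When all 31554 distal MEF regions were divided by the other lists in which they had a peak, the members had the lowest KLF share of the 8 patterns. It was 8.20% in the 1097 regions also open at day 5 only, 12.8% in the 1004 also open at day 10 only, 8.04% in the 1779 shared with ESCs only, and 14.9% in the 2003 open in all 4 lists. The lowest of the 7 other patterns was 5.68% (95% Wilson interval 3.71% to 8.61%) in the 352 regions shared with day 5 and ESCs, whose interval includes the 4.92% of members. SOX shares in the 7 other patterns ran from 6.44% to 10.3%, and in 4 of them the interval included the 6.28% of members. AP-1 ran differently. It was 26.3% in regions also open at day 5 only, 14.5% in those also open at day 10 only and 15.5% in those shared with ESCs only, and 10.1% in regions open in all lists. These shares over patterns are descriptions beside the tested comparisons above.

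Within the members, both elements varied with the MEF fold enrichment. From the lowest to the highest quintile of distal MEF regions by fold enrichment, the AP-1 share of members was 18.2%, 21.2%, 24.3%, 29.2% and 33.5%, and the KLF share was 6.57%, 5.28%, 4.31%, 4.13% and 4.11%. TEAD ran from 13.4% to 16.4% and RUNX from 6.55% to 9.18%. Stronger members thus carried AP-1 more often and KLF less often, with non-overlapping 95% Wilson intervals between the lowest and the highest quintile for both. Their median peak width rose as well, from 400 bp in the lowest to 805 bp in the highest quintile, and its part was not tested. The same directions were seen in promoter-near MEF-only regions. There AP-1 was at 18.1% in the lowest and 29.2% in the highest quintile, and KLF at 10.2% and 4.65%.

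In kept regions the AP-1 shares of the 5 quintiles were 16.4%, 15.8%, 15.3%, 26.1% and 35.6%, and the KLF shares were 11.4%, 7.60%, 9.25%, 11.2% and 10.0%. Members exceeded kept regions in AP-1 by 8.97 points in the middle quintile (2.42 to 14.1, intervals of 25 comparisons held jointly at 95%), and the intervals of the other 4 quintiles spanned 0. Kept regions were also weighted to the members' distribution over quintiles of fold enrichment, cut anew from members and kept regions together. With this weighting the AP-1 difference was 3.48 points instead of 0.55, without an interval. Kept regions fell into the highest quintile of distal MEF regions more often (32.8%) than members (17.96%). The KLF difference was −4.98 points with this weighting, −4.95 over quintiles of peak width and −3.65 over quintiles of GC content, which averaged 45.8% in kept and 44.1% in member windows. KLF was lower in members in 4 of 5 quintiles of fold enrichment, and the remaining interval spanned 0. SOX was lower in members in 2 of 5 quintiles and TEAD higher in 1 of 5, the other intervals spanning 0.

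**Figure D3:**
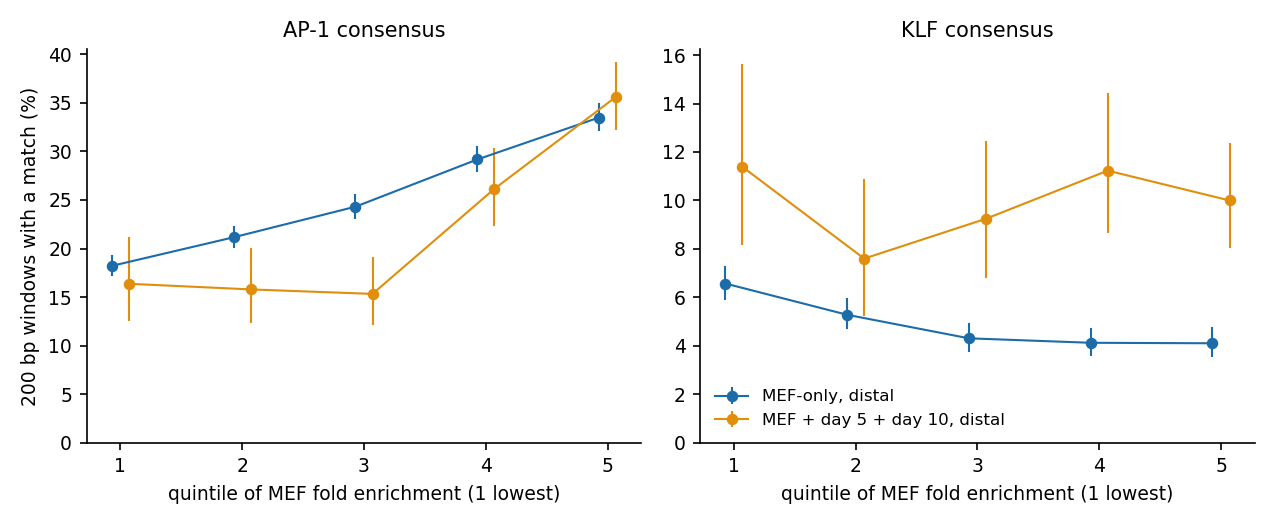
Share of 200 bp windows with an AP-1 (left) or KLF (right) match (y axes, %, each from 0) in quintiles of MEF fold enrichment (x axis) for MEF-only distal regions and regions kept on both days, with 95% Wilson intervals. In members AP-1 went up from 18.2% to 33.5% and KLF went down from 6.57% to 4.11%, and the KLF share of kept regions stayed between 7.60% and 11.4%.

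The 10 members with the highest MEF fold enrichment were mostly AT-rich. The highest, 8.80, lay between genes at chr11:99472002-99472664, 20473 bp from a start site with Krt23 the nearest protein-coding gene. It was followed by 7.56 near Fam135b, 7.17 in an intron of the potassium channel gene Kcnq5, 7.12 in the Klf12 intron shown above and 6.99 in an intron of Psme4, a proteasome activator gene. The other 5, nearest to Nsun3, Klhl14, Atp1b1, Pdha2 and Adgrl3, had values of 6.85 to 6.95. An AP-1 match was present in 2 of the 10 windows (Klf12 and Adgrl3), against 24.98% of all member windows and 33.5% in the highest quintile. A TEAD match was present in 2 (Psme4 and Pdha2), against 15.1% of all member windows. The 10 windows are too few to be told apart from those shares. Their GC contents ran from 27.5% to 49.5%, and 9 of the 10 were at 38.5% or lower.

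Each member was assigned to the protein-coding gene with the nearest start site. Of 21921 genes, 7329 (33.4%) had at least 1 member, and the median gene had 0. The 368 genes with 10 or more members held 5111 of them (22.7%). As genes differ in the length of sequence nearest to them, densities are given per 100 kb of that sequence outside 5 kb of start sites, and averaged 1.07 over all genes. ESC-only distal regions averaged 0.817 per 100 kb over all genes. Nearness does not show that a site acts on the gene.

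The 10 genes with the most members were large or isolated genes, several of them known for cell adhesion, guidance or mesenchymal identity. Rbms3, an RNA-binding protein gene, had 28 members (2.19 per 100 kb). Auts2 and Tenm3, a teneurin adhesion gene, each had 27, at 1.66 and 1.00 per 100 kb. Slit3, a secreted guidance ligand gene, had 26 at 4.31 per 100 kb, and Efna5, an ephrin ligand gene, and Rbfox1, a splicing factor gene, also had 26. Pde4d, a cAMP phosphodiesterase gene, Zeb2, which represses epithelial genes, and Cdh11, the mesenchymal cadherin gene, had 25 each, and Ebf1 had 24. Slit3 and Ebf1 stood out among the 10 by density, and Tenm3, at 1.00, was below the average of all genes. Slit3 had 31 distal open regions in MEFs, 11 in ESCs, 7 at day 5 and 10 at day 10. Genes named for many members were picked for MEF regions absent from the other lists, so counts per list there are descriptions. At Cdh11 MEFs had 28, day 5 had 25, day 10 had 12 and ESCs had 5, so at most 3 of the 25 day 5 regions there were shared with MEFs.

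Among genes with at least 10 members, a list looked up after the counts were known, the densest was Ror2, a WNT5A receptor gene, with 15 members (8.20 per 100 kb). It was followed by Col4a1, a basement membrane collagen gene, with 12 (8.03), Mrtfa, a coactivator of SRF, with 10 (7.75), Bcar3 with 12 (7.26) and Foxl1 with 13 (7.18). Cd44, a hyaluronan receptor gene and a marker of somatic cells in reprogramming, had 10 (7.02). At Foxl1 all 13 distal regions of the MEF list were members, against 71.3% of all distal MEF regions, and 0 distal regions were listed in the other 3 lists. Foxl1 was picked by its members, so this is a description.

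The genes of the extracellular matrix had members throughout. All 22 genes of that list had at least 1, with a median of 4.5, against 33.4% and a median of 0 over all genes. These genes had a median of 196.6 kb of distal sequence, against 23.6 kb over all genes. They held 133 members, or 3.07 per 100 kb, and 28 ESC-only distal regions at 13 of the genes, or 0.646 per 100 kb. Tnc, which encodes tenascin C, had 18 members, and the lists of MEFs, day 5, day 10 and ESCs held 22, 7, 1 and 3 distal regions there. Col5a1, a fibrillar collagen gene, had 13 members at 6.27 per 100 kb, with 14, 1, 0 and 0 distal open regions in the same order. Thbs1, which encodes thrombospondin 1, had 13, with 15, 5, 3 and 4. Tnc, Col5a1 and Thbs1 were named for their members, a choice that favours an excess of MEF regions. Members made up 71.3% of all distal MEF regions. Members outnumbered ESC-only regions at 20 of the 22 genes, and at the other 2 the numbers were equal. Over all 21921 genes they were more numerous at 4833 (22.0%) and fewer at 3907.

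The contractile and TGF-β genes, which go with the activated fibroblast, had member densities in the same range. Of 15 actin and contractile genes, 10 had a member (43 members, 4.40 per 100 kb, median 2). They had 15 ESC-only regions (1.535 per 100 kb), at 5 of the genes, and a median of 19.6 kb of distal sequence. Over all genes 33.4% had a member and 32.9% an ESC-only region, with a median of 23.6 kb of distal sequence. Filip1l, which encodes a filamin-interacting protein, had 13 members, Cald1 (caldesmon) 7 and Tpm1 (tropomyosin) 5. Tagln, Cnn1 and Cnn2 have no distal sequence of their own, so 0 members was the only possible count. The 15 TGF-β genes had 41 ESC-only regions (1.21 per 100 kb), and 12 of these genes had a member (99 members, 2.92 per 100 kb, median 6). An ESC-only region was present at 10 of the TGF-β genes, and their median distal sequence was 180.2 kb. Inhba, which encodes the activin A subunit, had 21, Ltbp1, a latent TGF-β binding protein gene, 17, and Smad3, a signal transducer, 12 at 6.66 per 100 kb, as many as the receptor gene Tgfbr2. At Smad3 the 12 distal MEF regions were all members, against 71.3% of all distal MEF regions. Among the others of this list, Tgfb1, Tgfb3 and Smad4 had 0.

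Lists of receptor genes and of genes for the AP-1, TEAD and RUNX factors themselves were also described. Of 11 receptor kinase genes, 9 had a member (55 members, 3.31 per 100 kb, and 23 ESC-only regions, 1.39 per 100 kb). As many, 9, had an ESC-only region. Over all genes 33.4% had a member and 32.9% an ESC-only region. The median distal sequence of the receptor kinase genes was 150.7 kb, against 23.6 kb over all genes. Igf1r and Fgfr2 led with 11 members each, and Ephb2 had 10. At Igf1r 18 distal regions were open in MEFs, 7 at day 5 and 16 at day 10. Pdgfra, a defining receptor of MEFs, had 0 members and 4 ESC-only regions. Of 24 genes of AP-1, TEAD and RUNX factors, their partners and targets, 17 had a member (71 members, 2.26 per 100 kb, and 37 ESC-only regions, 1.18 per 100 kb). An ESC-only region was found at 15 of these 24 genes, whose median distal sequence was 66.0 kb. Runx1 had 16 members, Runx2 13 and Vgll3, a TEAD cofactor, 8. Jun had 5 and Fos 1.

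The 24 fibroblast transcription factor genes held 130 members at 1.75 per 100 kb and 48 ESC-only regions at 0.645 per 100 kb. Of these genes, 22 had at least 1 member (median 2) and 14 an ESC-only region, against 33.4% and 32.9% of all genes. Their median distal sequence was 165.7 kb, against 23.6 kb over all genes. Zeb2 (25), Ebf1 (24) and Tbx18, a mesenchymal T-box gene, (15) had the most. Around Zeb2 the lists of MEFs, day 5, day 10 and ESCs held 32, 18, 16 and 8 distal regions, and around Ebf1 they held 27, 6, 8 and 11. Prrx1, a limb and skin mesenchyme factor singled out after the counts were known, had 7 members (5.29 per 100 kb) and 0 ESC-only regions. Snai2 had 0 members.

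**Figure D4:**
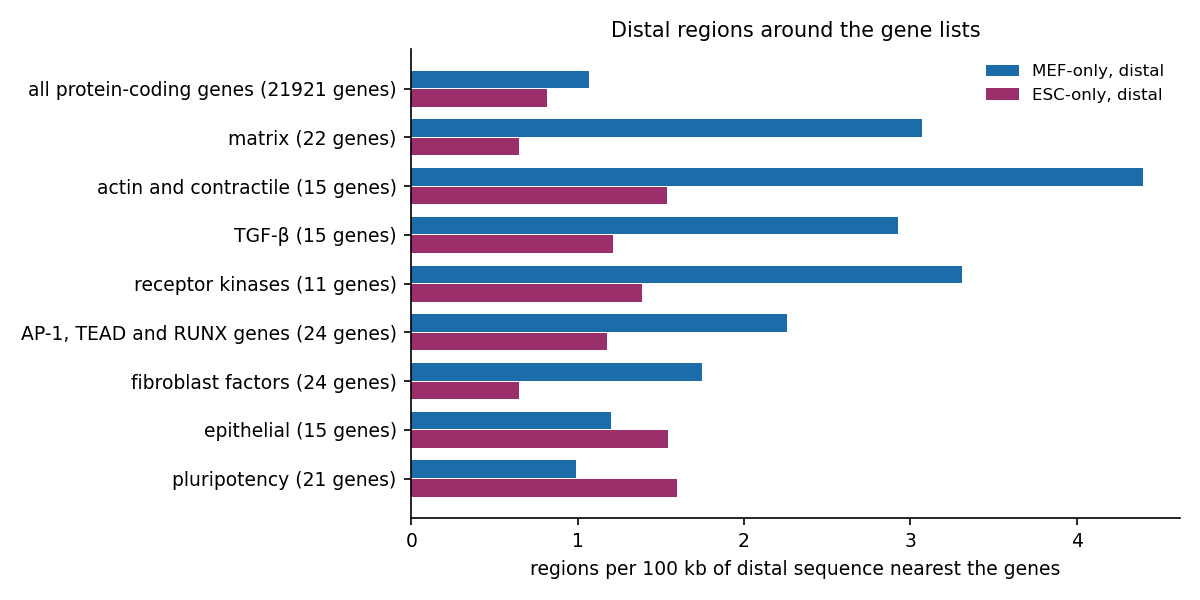
Number of MEF-only and ESC-only distal regions per 100 kb of distal sequence nearest the genes (x axis) for all protein-coding genes and 8 gene lists (y axis), as bars from 0. MEF-only regions were denser than ESC-only regions in 6 lists, the highest being 4.40 per 100 kb for actin and contractile genes, and sparser for epithelial (1.20 against 1.54) and pluripotency genes (0.989 against 1.60).

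ESC-only regions were denser than members at pluripotency and epithelial genes, the latter with few regions of either kind. The 21 pluripotency genes had 57 members (0.989 per 100 kb, 12 genes with at least 1) and 92 ESC-only regions (1.60 per 100 kb, 17 genes with at least 1). Over all genes 33.4% and 32.9% had at least 1. The median distal sequence was 148.8 kb for the pluripotency genes and 23.6 kb over all genes. Members were fewer than ESC-only regions at 12 of the 21 (3907 of all 21921 genes) and more numerous at 3 (4833 of all genes). Klf4, itself a reprogramming factor that is also expressed in fibroblasts, had the most members, 15 against 4 ESC-only regions. Tbx3 and Sox2 followed with 8 each, against 5 and 7. Nanog, Pou5f1, Zfp42 and Prdm14 had 0. The 15 epithelial genes had 7 members (1.20 per 100 kb, against 1.07 over all genes) and 9 ESC-only regions. Members were more numerous at 3 of them and fewer at 2. There were 2 at Grhl2, a factor that maintains epithelial cells, and 1 each at Cdh1, Epcam, Ocln, Krt8 and Krt18. These lists were described by counts, without a test.

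**Figure D5:**
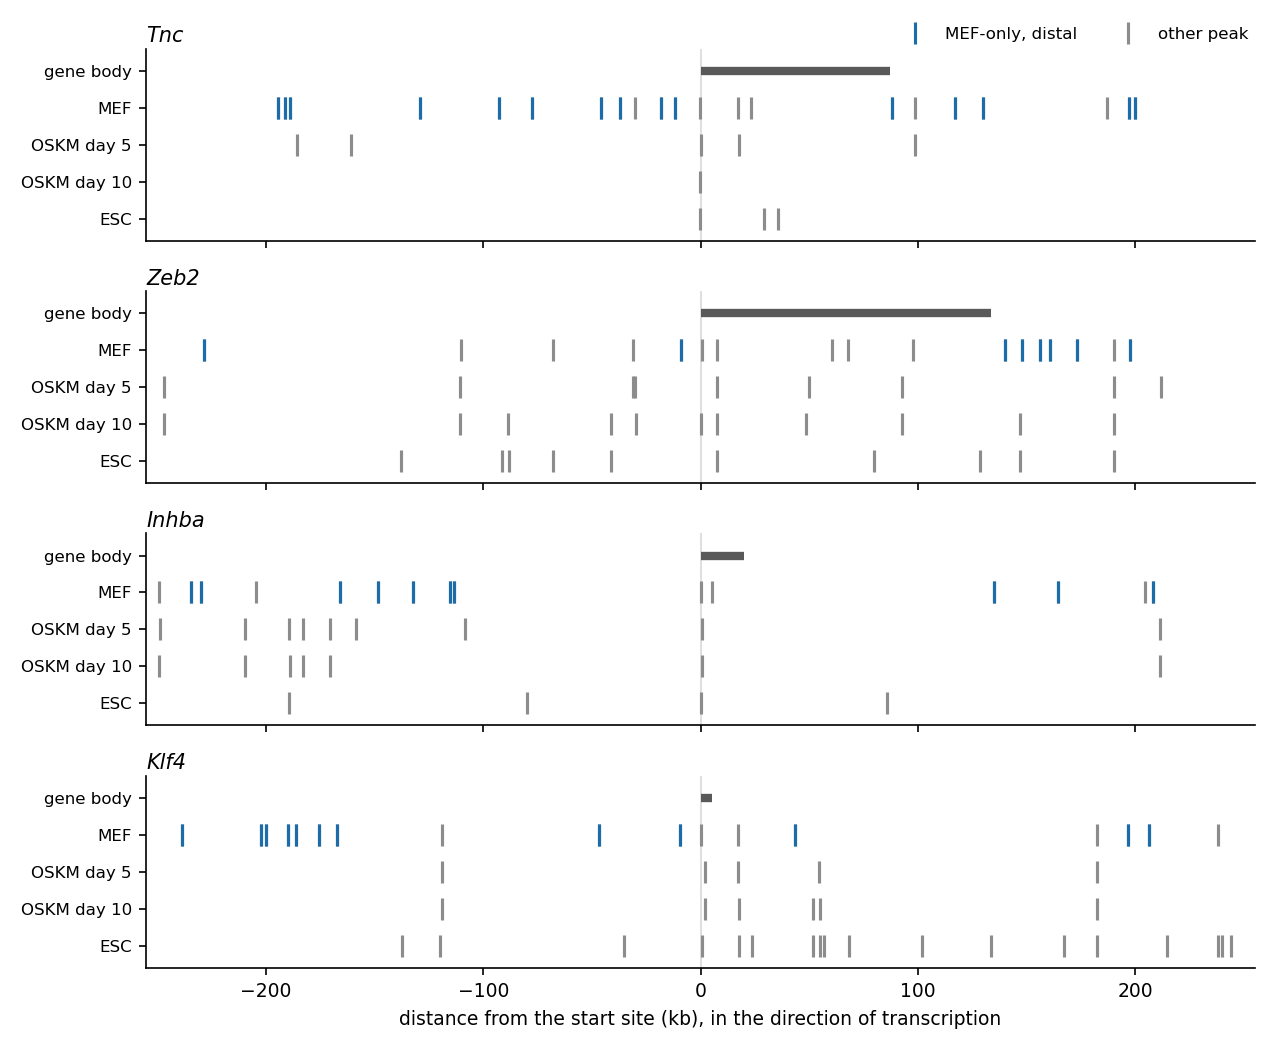
Peaks within 250 kb of the start site (x axis, kb, in the direction of transcription) of Tnc, Zeb2, Inhba and Klf4, the genes with the most members in 4 of the lists, with a row for the gene body and for each peak list, each tick marking the middle of a peak. MEF-only distal regions are drawn in blue in the MEF row and number 15 at Tnc, 8 at Zeb2, 10 at Inhba and 12 at Klf4.

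Around these start sites the members lay in different arrangements. Within 250 kb of Tnc the MEF list had 21 peaks, of which 15 were members on both sides of the gene, and the lists of day 5, day 10 and ESCs had 5, 1 and 3. Around Klf4 17 MEF peaks included 12 members, and the ESC list had 18 peaks, with 5 at day 5 and 6 at day 10. Around Zeb2 there were 17 MEF peaks with 8 members, and 9, 11 and 10 peaks in the other lists. Around Inhba there were 15 MEF peaks with 10 members, and 9, 7 and 4 in the others. These windows also take in members assigned to neighbouring genes.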

How the data were processed

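ATAC-seq was done by the authors on 2 libraries of each of 4 groups. Per the labels, reads were mapped to mm10 with bowtie2 (2.2.0 in the submitters' processing notes, while the methods name another release), and reads of low mapping quality were removed. The peak caller and any shift of read ends are not given in the sources used here. The authors deposited 1 peak list per group, in which each peak has a score, the whole part of 10 −log10 q in nearly all rows, a fold enrichment, which is a ratio over background made by their peak calling, and 2 values on a −log10 scale, for the p-value and the q-value. The −log10 p-value was not used. Names point to replicate 1 peaks intersected with replicate 2, which is stated nowhere, so score and fold enrichment may belong to a longer interval than the one listed. The smallest −log10 q-value was 1.01. The depth is unknown.

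Peaks within 400 bp were merged across lists, and distances were taken to 132629 start sites of GENCODE mouse release 21. Both strands of 200 bp windows were searched for 18 consensus sequences and a reversed AP-1 control word, placed around the midpoint of the widest MEF peak (or the ESC peak where MEFs had none), and in windows 1 kb to each side. Shares carry Wilson intervals and differences Newcombe intervals, adjusted by Bonferroni over 79 differences. Signs were counted over chromosomes with at least 50 regions in both sets. Counts for neighbouring regions are not independent, and p-values were not computed. Regions were assigned to the nearest of 21921 protein-coding genes. Densities are left out for genes with less than 10 kb of distal sequence. Words of 8 bases were ranked when present in at least 0.5% of windows. The code was tested on simulated data and used numpy 2.4.6 and pandas 2.3.3. Sequences come from the RefSeq copy of GRCm38.

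Named genes are the 10 with the most members and the 3 with the most members in each of 8 lists, and named regions the 10 members with the highest fold enrichment. Genes named outside this rule are said to be so, or illustrate a count of 0 or a list. The members, lists and tests were chosen with earlier results of these data known. Alternatives covered merging, distance to start sites, peak strength, list length, window size, repeats and sex chromosomes.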

Additional observations from a re-analysis of the deposited data

How the results depend on the processing

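The comparisons were recomputed under 14 alternatives, which gave 112 values besides those reported. In 105 the interval stayed on the same side of 0 or still spanned it, or the number of members stayed in the range given next. The AP-1 and intron differences to kept regions changed sign in some of these, with intervals that spanned 0. The intron difference, −2.43 points as reported, was 1.04 with the higher-scoring 50% of each list. The number of members, 22502, ranged from 17635 to 27478 except with the higher-scoring 50% of each list (10084) and with an equal number of highest-scoring peaks per list (11737). The AP-1 difference to flanks ranged from 11.9 points (window of 100 bp) to 32.8 (400 bp), and the KLF and SOX differences to kept regions stayed below 0 throughout. The AP-1 difference to promoter-near MEF-only regions lost its call with members over 10 kb from start sites (1.21 points) and with a 100 bp window (1.06 points). The TEAD difference to kept regions lost its call over 10 kb from start sites (2.87 points), with the higher-scoring 50% of each list (3.02 points) and with a 100 bp window (1.44 points). The causes were not tested. The AP-1 difference to kept regions ranged from −0.30 to 3.29 points, with intervals that spanned 0 in every alternative run. The alternatives for KLF, SOX and TEAD, and the weighting over quintiles, were chosen after seeing the data. No paired analysis was possible because the deposited data hold 1 peak list per group and no lists of single libraries, and for the same reason no replicate could be left out. A site counted as lost in reprogramming may be open below the limit of a shorter list.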
